A study of Mus musculus with 12 samples.

Results

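The miR-23, miR-27 and miR-24 microRNAs (miRNAs) of the mouse were followed across 12 small RNA libraries from 5 cell types. Members were taken by name, as every listed arm of miR-23a, miR-23b, miR-27a, miR-27b and miR-24, which gave 11 of the 1042 miRNAs of the table. A minimum of 10 reads in 2 or more libraries was set for the tests, which all 11 members and 732 of the 1042 miRNAs met. In the table their names carry the prefix mmu- for the mouse, as in mmu-miR-23a-3p, mmu-miR-27a-5p, mmu-miR-24-3p and mmu-miR-23b-5p, which is left out from here on. There were 3 libraries of mouse embryonic fibroblasts (MEFs, C57B6/129SvJae F1), 3 of embryonic stem cells (ESCs, line E14, strain 129/ola) and 2 each of induced pluripotent stem cells (iPSCs), NT-ESCs and NT-iPSCs, which carry the same C57B6/129SvJae F1 background as the MEFs. The iPSCs came from MEFs that received Oct4, Sox2, Klf4 and c-Myc on dox-inducible lentiviruses. NT-ESCs were derived after MEF nuclei were placed in enucleated oocytes, and NT-iPSCs after the nucleus of an iPSC was treated in the same way. These last 3 types are called reprogrammed cells here. All 4 pluripotent types, ESCs included, grew with LIF on a layer of irradiated MEFs. Each group consisted of RNA batches from 1 line, so the p-values below measure only the spread between batches, and in all comparisons with ESCs the strain differs together with the cell type.

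The 2 clusters arose by duplication, and each encodes a miR-23, a miR-27 and a miR-24 hairpin on 1 primary transcript. A hairpin is cut by Drosha and Dicer into a duplex whose 5p and 3p arms can each be loaded into an Argonaute protein, and the arm that is loaded less often is usually degraded. The loaded miRNA recognises target mRNAs mainly through its seed, bases 2 to 8 from the 5′ end. Members of the clusters are known for roles in muscle, blood vessels, fat cells and the cell cycle, and MYC is known to repress the miR-23a and miR-23b transcripts in some cells.

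In GRCm38 the miR-23a cluster spans 404 bp of the plus strand at chr8:84208518-84208921. Its hairpins lie in the order Mir23a (84208518 to 84208592), Mir27a (84208672 to 84208758) and Mir24-2 (84208815 to 84208921). Mir23a and Mir27a lie outside other annotated genes, while Mir24-2 overlaps an exon of the lincRNA Gm26532 on the same strand and Mir3074-2 on the opposite strand. The miR-23b cluster spans 792 bp of the plus strand at chr13:63300484-63301275. Mir23b (63300484 to 63300557) lies in an intron of the coding gene 2010111I01Rik, and Mir27b (63300712 to 63300784) and Mir24-1 (63301208 to 63301275) fall in annotated exons of its transcripts. All of the latter 3 also lie opposite an intron of Fancc, and Mir24-1 lies opposite Mir3074-1.

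The mature sequences are shown because the seeds define the families, and because corresponding arms of the 2 clusters range from identical to clearly different. They were taken from RefSeq (GRCm38.p6), which matched 10 of the 11 members, and are written 5′ to 3′ with the seed in capitals. miR-23b-3p is named only.
miR-23a-3p: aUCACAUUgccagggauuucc
miR-27a-3p: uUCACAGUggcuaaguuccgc
miR-27b-3p: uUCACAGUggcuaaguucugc
miR-24-3p: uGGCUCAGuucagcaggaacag
miR-23a-5p: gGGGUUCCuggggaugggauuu
miR-23b-5p: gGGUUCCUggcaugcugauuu
miR-27a-5p: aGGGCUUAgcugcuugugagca
miR-27b-5p: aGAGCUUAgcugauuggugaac
miR-24-2-5p: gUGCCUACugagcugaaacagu
miR-24-1-5p: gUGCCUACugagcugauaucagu
miR-27a-3p and miR-27b-3p share a seed and differ by 1 base, C19U, with positions counted from 1 at the 5′ end of the first-named miRNA. The seeds of miR-23a-3p and miR-27a-3p differ by 1 base, U7G. miR-24-3p is the same in both hairpins, so its reads cannot be assigned to a cluster. The 5p arms miR-24-2-5p and miR-24-1-5p share a seed but differ at 5 positions when aligned from their 5′ ends without gaps. Part of these come from the shift that an extra base in miR-24-1-5p makes. miR-27a-5p and miR-27b-5p differ at 8 positions, and 1 of these is in the seed (G3A). miR-23a-5p and miR-23b-5p differ at 12 positions, aligned from their 5′ ends without gaps, so a shift can add to this count as well. Reads of miR-27a-3p and miR-27b-3p can be told apart only by that 1 base, so a sequencing error or a read that stops before it could move counts between them. Whether the same holds for miR-23a-3p and miR-23b-3p was not checked, because no sequence was matched for miR-23b-3p. How the reads were assigned between such pairs is not given in the sources used here.

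The deposited value of each miRNA was a read count scaled by a DESeq size factor and variance stabilized (VST), which puts it on a log2 scale. Reads recovered from these values summed to between 4863365 and 8608689 per library, so that 3 reads equal 0.348 to 0.617 CPM, the read count scaled to the miRNA reads of the library. Such limits cover counting error only, because reads from amplified libraries are not independent molecules. Cell type labels were checked against marker miRNAs. The 11 pluripotency miRNAs, which include the miR-290 and miR-302 families, summed to between 0.869 and 9.06 CPM in MEFs, where 4 of them were at 0 (miR-302a-3p, miR-302c-3p, miR-302d-3p and miR-367-3p). The sum was 73664 to 89037 CPM for ESCs and 115267 to 184054 CPM for reprogrammed cells. By limma 5 of the 11 were higher and 2 lower in reprogrammed cells than in ESCs, with a median VST difference of 0.30. A list of 15 mesenchymal miRNAs summed to 320945 to 368811 CPM for MEFs, 137998 to 162589 CPM for ESCs and 58041 to 84891 CPM for reprogrammed libraries. Its miRNAs did not all follow that sum: by limma 8 of the 15 were higher and 6 lower in reprogrammed cells than in ESCs, with a median VST difference of 0.71. A list of 3 muscle miRNAs summed to 106535 to 126933 CPM for MEFs, 489 to 569 CPM for ESCs and 1844 to 2520 CPM for reprogrammed libraries. Of these, 2 were higher and 1 lower in reprogrammed cells than in ESCs by limma. In ESCs and in reprogrammed cells no marker of these lists was at 0 in all libraries of the type. The mesenchymal and muscle sums, like the members' values, differ between the cell types, and their part in the results was not tested. The size factors lay between 0.761 and 0.998 in MEFs and ESCs and between 1.14 and 1.44 in reprogrammed cells, without overlap. By the authors' sequencing summary, every reprogrammed library also had more total reads and a larger share of adaptor contaminants than every MEF and ESC library. Each had smaller shares of reads without an adaptor or without an insert. The labels do not say which libraries were prepared or sequenced together, so a difference in handling cannot be told apart from a difference between reprogrammed cells and the other types.

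Within both clusters the members differed in opposite directions between reprogrammed cells and ESCs. The miR-23 arms were higher in reprogrammed cells, miR-24-3p, both miR-24 5p arms, both arms of miR-27a and miR-27b-3p were lower, and miR-27b-5p did not pass the test. By limma on the VST values, with Benjamini-Hochberg adjustment over the 732 miRNAs, 10 of 11 members passed an adjusted p of 0.05, and 82.0% of all miRNAs tested did so. There were 4 members higher, against 44.0% of all, and 6 lower, against 38.0% of all. The share of members that passed was thus near that of the whole table, and the median absolute difference was 2.80 for the members and 2.00 for all miRNAs tested, in log2 units. The median signed difference was -1.12 for the members and 0.24 for all. The directions of the 10 called members were kept under each of the other scalings tried, which moved the median of all miRNAs by 0.27 (upper quartile), -0.16 (TMM-type) and 0.12 (total miRNA reads as library size).

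**Figure D1:**
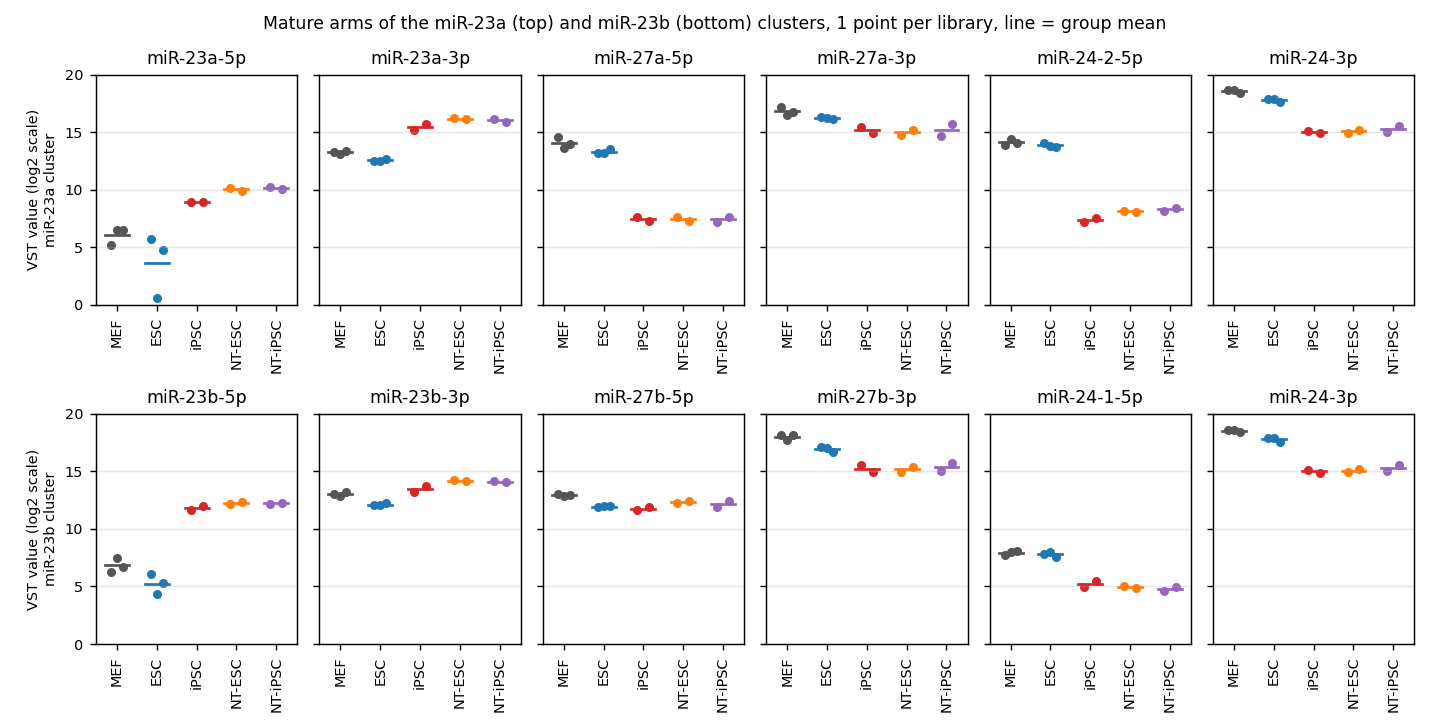
VST value (log2 scale, vertical axis) of each member in the 12 libraries, by cell type, with 1 point per library and a line at the group mean; the top row holds the arms of the miR-23a cluster and the bottom row those of the miR-23b cluster, with miR-24-3p, which both encode, in each. The 4 miR-23 arms stand higher in the 6 reprogrammed libraries than in ESCs and MEFs, the miR-24 arms, both miR-27a arms and miR-27b-3p stand lower, and miR-27b-5p overlaps between ESCs and reprogrammed cells.

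miR-23a-3p, the 5′-most hairpin's main arm in the miR-23a cluster, had VST values of 13.25, 13.06 and 13.38 in MEFs and 12.50, 12.47 and 12.62 in ESCs. It reached 15.18 and 15.71 in iPSCs, 16.22 and 16.12 in both NT-ESC libraries, and 16.11 and 15.92 in NT-iPSCs. Every reprogrammed library was above every ESC and MEF library. The difference from ESCs was 3.34 ± 0.13 (SE; limma adjusted p = 7.7e-10) and that from MEFs was 2.65 (adjusted p = 3.2e-09), in log2 units. In abundance, ESCs had a mean of 247 CPM ± 19.9 (SD, n = 3) and reprogrammed cells one of 2739 CPM ± 420 (SD, n = 6). By mean CPM it ranked 177th in ESCs, 135th in MEFs and 47th to 68th in the 3 reprogrammed types.

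miR-23b-3p, its counterpart from chromosome 13, moved in the same direction by a smaller amount. Its VST values were 13.06, 12.88 and 13.17 in MEFs and 12.05, 12.10 and 12.22 in ESCs. Those in reprogrammed cells were 13.22 and 13.75 in iPSCs, 14.22 and 14.15 in both NT-ESC libraries, and 14.14 and 14.06 in NT-iPSCs. The lowest reprogrammed library, an iPSC library, lay 0.05 above the highest MEF library on the scale of the deposited values. In CPM the gap was wider, with 174 to 210 CPM in MEFs and 569 to 843 CPM in reprogrammed libraries. The difference was 1.80 ± 0.13 (SE; limma adjusted p = 1.3e-07) from ESCs and 0.89 (adjusted p = 5e-05) from MEFs, and the latter became 1.90 with total miRNA reads as library size.

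The 5p arms of both miR-23 hairpins were close to absent in ESCs. miR-23b-5p had 13, 4 and 8 reads in ESCs and 13, 34 and 19 reads in MEFs. It had 1037 and 1288 reads in iPSCs, 1510 and 1344 in both NT-ESC libraries, and 1335 and 1402 in NT-iPSCs. ESCs held 1.65 CPM ± 0.991 (SD, n = 3) of it and reprogrammed cells 199 CPM ± 13.5 (SD, n = 6). On the VST scale the difference was 6.87 ± 0.35 (SE; limma adjusted p = 6e-09), the largest of the 11 members in absolute size. miR-23a-5p was rarer, with 10, 0 and 5 reads in ESCs and 6, 17 and 16 reads in MEFs. The library with 0 reads allows up to 0.520 CPM by counting error alone. In reprogrammed cells miR-23a-5p had between 152 and 387 reads, all above the other 2 types, and the VST difference from ESCs was 6.04 ± 0.87 (SE; limma adjusted p = 5.5e-05). Without ESC replicate 3, the library with 0 reads, it was 4.496, and without ESC replicate 2 it was 7.05, and it passed in both cases. Its standard error was the widest of the members.

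miR-24-3p was the most abundant member in MEFs and ESCs, and it fell in reprogrammed cells. It had VST values of 18.63, 18.63 and 18.38 in MEFs and 17.88, 17.89 and 17.58 in ESCs. In reprogrammed cells the values were 15.13 and 14.89 in iPSCs, 14.94 and 15.17 in both NT-ESC libraries, and 15.03 and 15.56 in NT-iPSCs. The groups did not overlap, and the difference from ESCs was -2.66 ± 0.14 (SE; limma adjusted p = 9.8e-09). MEFs had a mean level of 8643 CPM ± 1024 (SD, n = 3), ESCs one of 9426 CPM ± 959 (SD, n = 3) and reprogrammed cells one of 1633 CPM ± 317 (SD, n = 6). Its rank by mean CPM went from 18th in MEFs and 28th in ESCs to 75th to 83rd in the reprogrammed types.

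The 5p arms that distinguish the miR-24 hairpins both fell. miR-24-2-5p, from the miR-23a cluster, had 3447, 3317 and 2899 reads in ESCs and 2669, 4044 and 3057 reads in MEFs. Only 46 and 56 reads were left in iPSCs, 93 and 71 in NT-ESCs, and 78 and 96 in NT-iPSCs. The VST difference from ESCs was -5.94 ± 0.15 (SE; limma adjusted p = 5e-11). miR-24-1-5p, from the miR-23b cluster, was rare in every cell type. ESCs gave 46, 58 and 39 reads, MEFs 37, 48 and 48, and reprogrammed libraries 6 to 13. Its difference was -2.80 ± 0.23 (SE; limma adjusted p = 4.1e-07), and -2.85 with voom on recovered reads.

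miR-27a-5p, whose hairpin lies between miR-23a and miR-24-2 on the transcript, also fell steeply. It had 1895, 2137 and 2565 reads in ESCs and 4418, 2389 and 2987 in MEFs. There were 62 and 49 reads in iPSCs, 64 and 40 in both NT-ESC libraries, and 41 and 55 in NT-iPSCs. The VST difference from ESCs was -5.86 ± 0.22 (SE; limma adjusted p = 4.7e-10). From rank 133 in ESCs it went to ranks 480 to 487 in the reprogrammed types.

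The 3p arms of miR-27, the main products of both miR-27 hairpins, changed less. miR-27a-3p had VST values of 17.19, 16.48 and 16.71 in MEFs and 16.30, 16.19 and 16.16 in ESCs. They were 15.48 and 14.91 in iPSCs, 14.75 and 15.18 in both NT-ESC libraries, and 14.62 and 15.66 in NT-iPSCs, and thus below ESCs in all 6 libraries. The difference from ESCs was -1.12 ± 0.24 (SE; limma adjusted p = 0.00107). miR-27b-3p had VST values of 18.18, 17.73 and 18.13 in MEFs and 17.09, 17.05 and 16.66 in ESCs. Reprogrammed libraries lay between 14.94 and 15.70, again without overlap, and the difference from ESCs was -1.68 ± 0.20 (SE; limma adjusted p = 1.1e-05).

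miR-27b-5p was the exception among the 11. Its VST values were 11.91, 11.95 and 11.96 in ESCs, then 11.64 and 11.90 in iPSCs, 12.22 and 12.44 in both NT-ESC libraries, and 11.91 and 12.45 in NT-iPSCs. The groups overlapped, and the difference was 0.15 ± 0.13 (SE; limma adjusted p = 0.319), which became 0.42 and passed the test with upper quartile scaling. In MEFs it was 13.04, 12.90 and 12.98, and reprogrammed cells were lower than MEFs by limma (difference -0.88, adjusted p = 7.1e-05), a direction that turned (0.13) with total miRNA reads as library size, which moved the median of all miRNAs by 0.99 in this comparison.

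All 11 members passed the test between reprogrammed cells and MEFs, 4 higher and 7 lower, where 88.9% of all miRNAs did (48.5% higher and 40.4% lower). All 11 also did not overlap between these groups, as held for 80.6% of all. With total miRNA reads as library size the difference from MEFs went from -1.69 to -0.68 for miR-27a-3p and from -2.76 to -1.75 for miR-27b-3p. The comparisons with ESCs and with MEFs use the same 6 reprogrammed libraries. Side by side, the VST differences from ESCs and from MEFs were -5.86 and -6.63 for miR-27a-5p, -5.94 and -6.18 for miR-24-2-5p, and 6.87 and 5.27 for miR-23b-5p.

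For 10 of the 11 members MEFs lay closer to ESCs than reprogrammed cells did, by absolute VST difference, with miR-27b-5p (1.03 against 0.15) the exception, and the direction of most differences depended on the scaling. The share of all miRNAs for which the same holds was not counted. The median absolute VST difference between MEFs and ESCs was 0.77 for the members and 1.74 for all miRNAs tested. Between reprogrammed cells and ESCs these medians were 2.80 and 2.00. By limma, 8 of 11 members were higher in MEFs and 0 lower, where 79.0% of all miRNAs passed (39.1% higher and 39.9% lower). With total miRNA reads as library size, which moved the median of all miRNAs by -0.88, miR-23a-3p, miR-27a-3p, miR-27a-5p, miR-24-3p, miR-24-2-5p and miR-24-1-5p turned to lower in MEFs. The only 2 members that then passed were miR-24-2-5p (-0.65, limma adjusted p = 0.0103) and miR-24-1-5p (-0.73, adjusted p = 0.029), both lower in MEFs, and none of the 8 did. With TMM-type scaling, which moved that median by -0.45, 4 of the 8 passed, and miR-24-2-5p and miR-24-1-5p turned without passing. Upper quartile scaling moved that median by 0.25, and all 8 passed. miR-24-2-5p (0.49, limma adjusted p = 0.0381) and miR-27a-3p (0.82, adjusted p = 0.0165) then passed too, both higher in MEFs. The differences of the deposited values were 1.08 ± 0.23 (SE) for miR-27b-3p (limma adjusted p = 0.0013), 1.03 ± 0.16 for miR-27b-5p (adjusted p = 9.4e-05) and 0.91 ± 0.15 for miR-23b-3p (adjusted p = 0.000185). With total miRNA reads they shrank to 0.19 (adjusted p = 0.488), 0.14 (adjusted p = 0.419) and 0.02 (adjusted p = 0.892), and the calls were lost. The call of miR-23a-5p (2.41 ± 1.01, limma adjusted p = 0.0458) was lost without ESC replicate 3, the library with 0 reads (0.87, adjusted p = 0.0891), without MEF replicate 14 (2.19, adjusted p = 0.111), without MEF replicate 15 (2.21, adjusted p = 0.109) and in a fit of only these groups (adjusted p = 0.155). That of miR-27a-5p (0.77, limma adjusted p = 0.0158) was lost without MEF replicate 13 (0.51, adjusted p = 0.0605), ESC replicate 2 (adjusted p = 0.0501) or ESC replicate 3 (adjusted p = 0.0536). With 1 replicate left out, 6 to 8 members were called, and 6 without ESC replicate 3.

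**Figure D2:**
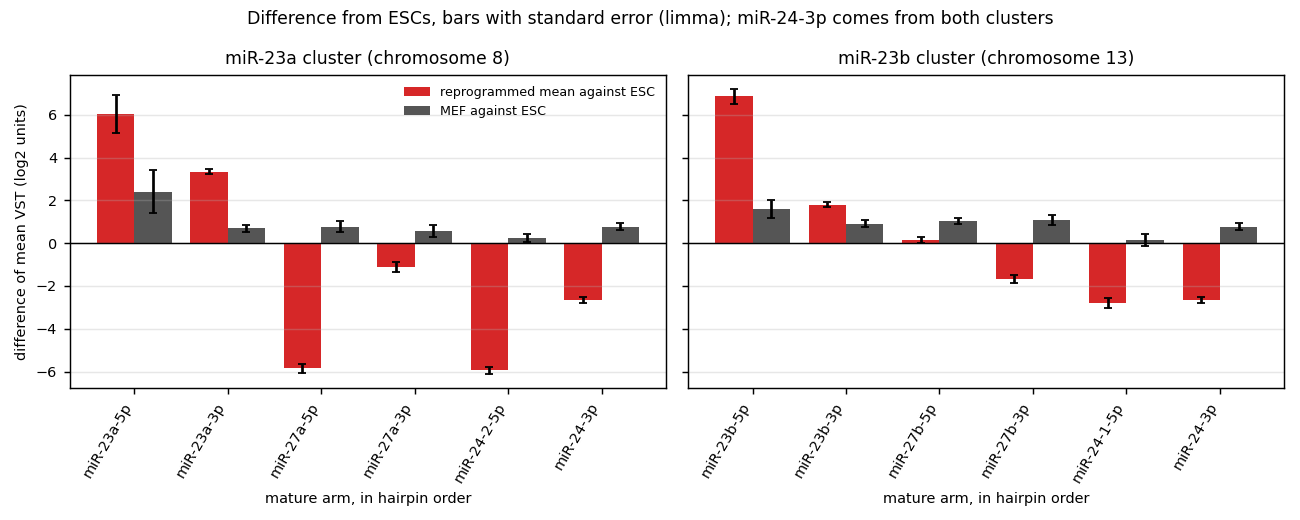
Difference of mean VST (log2 units, vertical axis) for each mature arm in hairpin order, with reprogrammed cells minus ESCs in red and MEFs minus ESCs in grey; bars start at 0 and error bars are the standard errors of limma. The red bars of the miR-23 arms point up (1.80 to 6.87) and those of the miR-24 and miR-27a arms point down (-1.12 to -5.94), while the grey bars lie between 0.14 and 2.41 and, for 6 members, turn below 0 with total miRNA reads as library size and, for 2 of these, also with TMM-type scaling.

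The arms were compared as the ratio of 5p to 3p reads of each hairpin, which does not depend on the scaling between libraries. Whether this ratio depends on the handling of the libraries, which cannot be told apart from reprogramming here, was not tested. In 5 of the 6 hairpins this ratio differed between reprogrammed cells and ESCs by limma over 307 hairpins, and 82.4% of all hairpins did so (35.2% higher and 47.2% lower). Reprogrammed cells had more of the 5p arm of miR-23a, miR-23b and miR-27b and less of that of miR-27a and miR-24-2. Against MEFs 4 of 6 passed, without miR-23a and miR-24-1, where 77.9% of all hairpins did. With a pseudocount of 5 reads in place of 0.5, miR-24-1 passed as well, with a log2 ratio higher by 0.88 in reprogrammed cells (limma adjusted p = 0.00109) in place of 0.43 (adjusted p = 0.153). Between MEFs and ESCs 0 of 6 hairpins passed by limma, and 0 had an unadjusted p under 0.05, where 28.7% of all hairpins passed. With the same pseudocount of 5 reads, 1 of 6 (miR-24-1) passed.

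The miR-23b and miR-27a hairpins had the widest shifts, in opposite directions. In ESCs the 5p arm of miR-23b made up 0.883% ± 0.548 (SD, n = 3) of the reads of both arms, and MEFs had 1.43% ± 0.785 (SD, n = 3). Reprogrammed cells had 22.2% ± 2.18 (SD, n = 6), with a range from 19.1% to 25.6%. The log2 ratio of 5p to 3p rose by 5.09 ± 0.41 (SE; limma adjusted p = 6.5e-07). For the miR-27a hairpin the 5p share in ESCs was 11.8% ± 2.03 (SD, n = 3), MEFs had 13.2% ± 1.12 (SD, n = 3), and reprogrammed cells had 0.496% ± 0.119 (SD, n = 6). The log2 change from ESCs was -4.75 ± 0.26 (SE; limma adjusted p = 3e-08). In both hairpins all 6 reprogrammed libraries lay outside the range of ESCs and MEFs.

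Smaller shifts were seen in the other hairpins. The 5p share of miR-27b rose from 3.08% ± 0.546 (SD, n = 3) in ESCs to 10.2% ± 2.20 (SD, n = 6), opposite in direction to that of its counterpart miR-27a (log2 change 1.83, limma adjusted p = 4.1e-05). For miR-24-2 the 5p share went from 6.18% ± 0.512 (SD, n = 3) in ESCs to 0.683% ± 0.169 (SD, n = 6), with miR-24-3p reads of both hairpins in the denominator (log2 change -3.29, limma adjusted p = 2.2e-07). That of miR-23a was low in every type. ESCs had 0.402% ± 0.418 (SD, n = 3), MEFs 0.734% ± 0.354 (SD, n = 3) and reprogrammed cells 1.39% ± 0.295 (SD, n = 6). Its log2 ratio differed from ESCs (2.53 ± 0.81, SE; limma adjusted p = 0.0132) and did not pass against MEFs (0.98 ± 0.81; adjusted p = 0.285). The change from ESCs was 1.20 without ESC replicate 3, the library with 0 reads of the 5p arm, and 0.99 with a pseudocount of 5 reads, and it passed in each case (limma adjusted p = 0.0301 and 0.012). miR-24-1-5p stayed below 0.14% of the reads of miR-24-1-5p and miR-24-3p together in every library, again with miR-24-3p of both hairpins in the denominator, and its log2 ratio to miR-24-3p did not pass (-0.19 ± 0.26; limma adjusted p = 0.529).

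**Figure D3:**
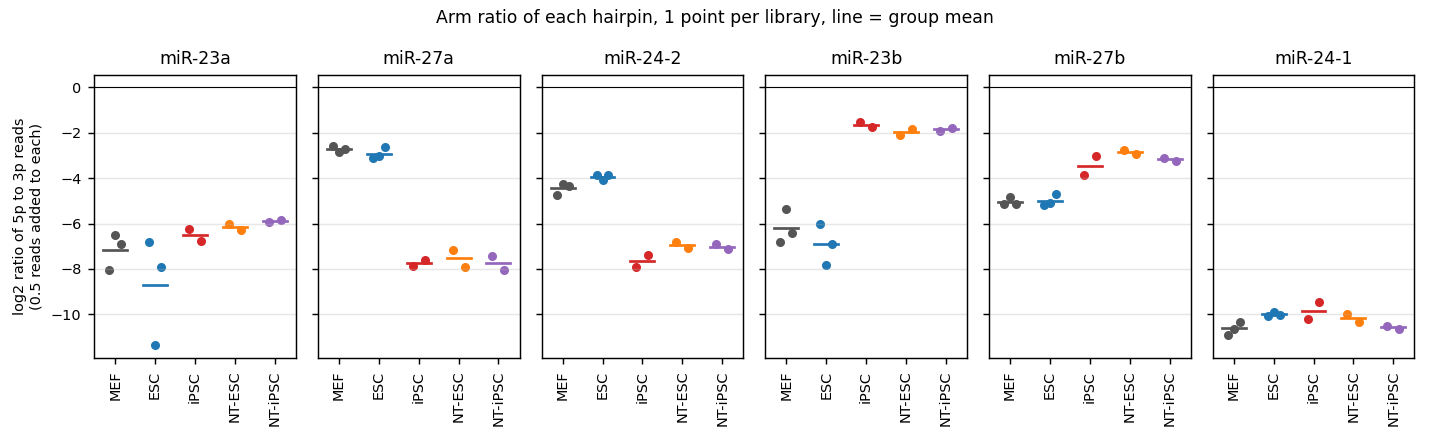
Log2 ratio of 5p to 3p reads (vertical axis, 0.5 reads added to each arm) for the 6 hairpins in the 12 libraries, by cell type, with 1 point per library and a line at the group mean; 0 marks equal reads of both arms. All points lie below 0, the reprogrammed libraries stand above ESCs and MEFs for miR-23b and miR-27b and below them for miR-27a and miR-24-2, and the isolated low point of miR-23a is the ESC library with 0 reads of the 5p arm.

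The balance between the clusters was compared as the read ratio of corresponding arms within a library, in 8 exact permutation tests over libraries (two-sided, with Benjamini-Hochberg adjustment over the 8). miR-23a-3p exceeded miR-23b-3p by a factor of 1.13 to 1.16 in MEFs and 1.30 to 1.37 in ESCs, whereas reprogrammed libraries gave 3.62 to 3.99. Whether reads could move between this pair of arms was not checked. Reprogrammed cells had a log2 ratio of 1.95 ± 0.049 (SD, n = 6) and ESCs one of 0.41 ± 0.038 (SD, n = 3), which differ by 1.54 (exact permutation p = 0.0119, the smallest that 84 arrangements allow; adjusted p = 0.019). MEFs were also below the 9 pluripotent libraries together (difference -1.25, exact permutation p = 0.00455, adjusted p = 0.0182). That last p became 0.0667 when any 1 of the 6 reprogrammed libraries was left out. Between MEFs and the 9 pluripotent libraries, miR-27a-3p to miR-27b-3p also passed (-0.88, exact permutation p = 0.00455, adjusted p = 0.0182). The ratios of miR-23a-5p to miR-23b-5p (1.31, exact permutation p = 0.0682) and miR-27a-5p to miR-27b-5p (3.75, exact permutation p = 0.141) did not pass.

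The miR-27 arms gave 2 different pictures. For the 3p arms, the read ratio of miR-27a-3p to miR-27b-3p was 0.374 to 0.504 in MEFs and 0.551 to 0.708 in ESCs, and reprogrammed libraries lay above both at 0.763 to 0.978. The log2 ratio differed by 0.56 between reprogrammed cells and ESCs (exact permutation p = 0.0119, adjusted p = 0.019). For the 5p arms the order turned over. Reads of miR-27a-5p outnumbered those of miR-27b-5p by 1.65 to 2.98 times in MEFs and 2.33 to 3.01 times in ESCs, whereas in reprogrammed cells their ratio was 0.028 to 0.062. The log2 ratio differed by -6.02 between reprogrammed cells and ESCs (exact permutation p = 0.0119, adjusted p = 0.019). The ratio of miR-23a-5p to miR-23b-5p did not pass between reprogrammed cells and ESCs (difference -1.02, exact permutation p = 0.143). Without ESC replicate 3, the library with 0 reads of miR-23a-5p, the difference was -1.91. Its exact permutation p of 0.0357 was the smallest possible there and was not adjusted.

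Ratios between hairpins of 1 cluster are given as a description, since they were picked out after the values had been seen. Reads of miR-23a-3p came to 0.065 to 0.099 of those of miR-27a-3p in both MEFs and ESCs, whereas reprogrammed libraries had 0.810 to 2.80. For the miR-23b cluster, reads of miR-23b-3p came to 0.029 to 0.046 of those of miR-27b-3p in both MEFs and ESCs, whereas reprogrammed libraries had 0.204 to 0.591. The 3p products of neighbouring hairpins were thus more nearly equal in reprogrammed cells in both clusters. The 5p arms of the miR-24 hairpins also drew closer, with 56.7 to 83.4 reads of miR-24-2-5p for each read of miR-24-1-5p in MEFs and ESCs and 4.19 to 12.1 in reprogrammed cells.

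Summed over the 11 members, MEFs had 1.86% ± 0.033 (SD, n = 3) of their miRNA reads on the clusters, ESCs 1.95% ± 0.18 (SD, n = 3) and reprogrammed cells 0.904% ± 0.119 (SD, n = 6). The 6 reprogrammed libraries (0.721% to 1.09%) lay below all 3 ESC libraries, a difference of -1.05 percentage points (exact permutation test, two-sided, p = 0.0119, the smallest possible). The difference between MEFs and the 9 pluripotent libraries did not pass (0.603 points, exact permutation p = 0.141), but it passed with the 10 most abundant other miRNAs left out of the total (2.56 points, exact permutation p = 0.00455) and without ESC replicate 2 (0.712 points, exact permutation p = 0.0364). Of the members' reads, ESCs had 2.25% ± 0.376 (SD, n = 3) on the miR-23 arms and reprogrammed cells 41.6% ± 8.95 (SD, n = 6). miR-24 went from 51.5% ± 0.805 (SD, n = 3) to 18.1% ± 1.49 (SD, n = 6) between the same groups, and miR-27 from 46.2% ± 0.535 (SD, n = 3) to 40.3% ± 7.67 (SD, n = 6). These reads come from bulk cultures, in which fewer cells that express a miRNA and less of it per cell cannot be told apart.

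**Figure D4:**
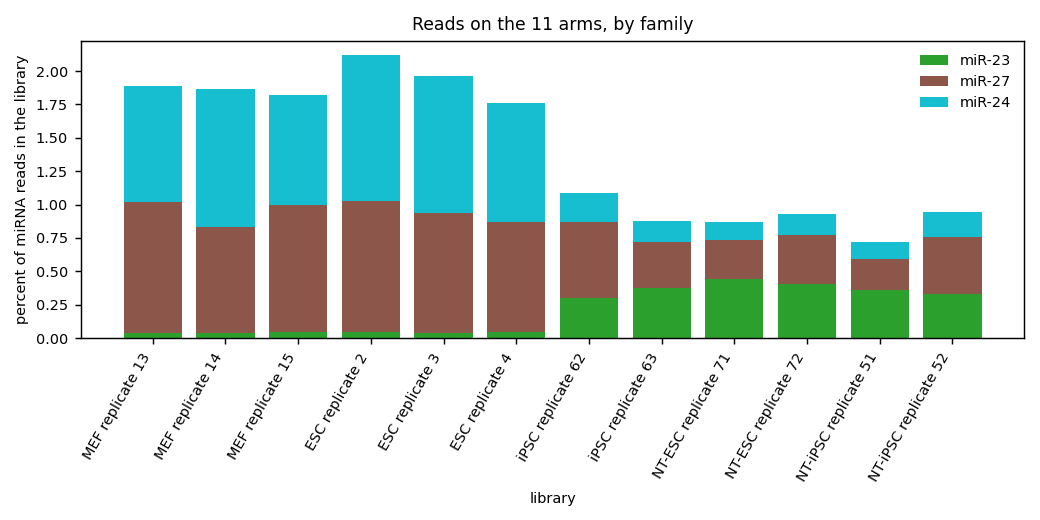
Percent of all miRNA reads (vertical axis) that fell on the 11 members in each of the 12 libraries, stacked by family from 0, with miR-23 at the bottom, miR-27 in the middle and miR-24 on top. The 6 reprogrammed libraries reach 0.721% to 1.09% and the 3 ESC libraries more, and the miR-23 layer is thin in MEFs and ESCs and takes 27.6% to 51.1% of the members' reads in reprogrammed libraries.

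Against ESCs, each reprogrammed type on its own gave 10 called members by limma, 4 higher and 6 lower with the same names in each. Of all miRNAs, 75.8% were called in iPSCs (39.8% higher and 36.1% lower) and likewise 75.8% in NT-ESCs (39.8% higher and 36.1% lower), and for NT-iPSCs the share was 77.6% (41.1% higher and 36.5% lower). These comparisons share the ESC libraries. The VST differences of miR-23a-3p were 2.91, 3.64 and 3.48 in the same order, and those of miR-27a-5p were -5.83, -5.86 and -5.88. With upper quartile scaling miR-27b-5p was called as well in NT-ESCs and NT-iPSCs. With total miRNA reads as library size it was called in NT-ESCs, and the count for iPSCs was 9. Between NT-ESCs and iPSCs, 3 of 11 members passed, where 25.7% of all miRNAs did. These were miR-23a-3p, miR-23b-3p and miR-24-2-5p, each higher in NT-ESCs, a direction in which 12.6% of all passed. The same 3 names passed between NT-iPSCs and iPSCs, where 26.5% of all did, and 13.4% were higher in NT-iPSCs. Libraries did not overlap for 6 of 11 members in each comparison, and for 68.9% and 63.1% of all miRNAs. The 3 that passed were among these 6 and lay above both iPSC libraries each time. Both comparisons use the same pair of iPSC libraries, and without iPSC replicate 62 the count was 0 in each. It was also 0 without NT-ESC replicate 71 or 72 in the first and without NT-iPSC replicate 52 in the second, and with total miRNA reads as library size none of the 3 passed in either. Between NT-iPSCs and NT-ESCs, 0 of 11 passed by limma, 0 had an unadjusted p under 0.05, and 12.8% of all miRNAs passed.

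Across the 12 libraries, VST values of the members fell into a few shared profiles, which largely reflect the differences between cell types described above. Pearson's r was 0.987 between miR-27a-5p and miR-24-2-5p, neighbours on chromosome 8, and -0.952 between miR-27a-5p and miR-23a-3p, the other neighbour. Between corresponding 3p arms of different chromosomes it was 0.949 for miR-23a-3p with miR-23b-3p and 0.971 for miR-27a-3p with miR-27b-3p. The miRNAs outside the clusters with the profile most like that of miR-23a-3p were miR-1839-5p (r = 0.993), miR-674-5p (0.991) and miR-598-3p (0.990). For miR-24-3p they were miR-30d-5p (0.994), miR-322-5p (0.992) and miR-381-3p (0.990). For miR-24-2-5p they were miR-140-5p (0.997), miR-30d-5p (0.996) and miR-196a-5p (0.992), and for miR-27a-3p miR-652-3p (0.947), miR-338-5p (0.945) and miR-493-5p (0.943).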

How the data were processed

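Small RNA was sequenced from 12 libraries, 3 each of MEFs and ESCs and 2 of every reprogrammed type. The authors filtered the tags for adaptors, quality and contaminants, annotated what was left, and deposited log2 scale values after DESeq normalization and variance stabilizing transformation (VST). The submitters' processing notes name the build mm8. The miRNA annotation release and the version of DESeq are not given in the sources used here. The deposited values are not counts, and edgeR and DESeq2 were not run on them or on the reads recovered from them. The VST was inverted to recover reads, which were whole within 0.05 read for 100% of nonzero values (largest deviation 0.0162), and the recomputed VST differed by at most 0.00336. Recovered depth was 4863365 to 8608689 reads per library.

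Groups were tested with limma 3.58.1 (R 4.3.3), using trended empirical Bayes moderation, 1 mean per cell type, all 12 libraries in 1 model, and Benjamini-Hochberg adjustment at 0.05 over 732 miRNAs (10 or more reads in 2 or more libraries). Arm ratios, log2 of 5p over 3p reads with 0.5 reads added, were fitted in the same way over 307 hairpins. Single ratios and shares were tested with exact permutations of libraries, enumerated in Python with numpy. The procedure was tested on simulated data. Python 3.11.15, numpy 2.4.6, pandas 2.3.3 and matplotlib 3.10.9 were used.

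The members, marker lists, tests and alternatives were chosen with earlier results of these data known. Every member was named, and for miR-23a-3p, miR-27a-3p, miR-24-3p and miR-24-2-5p the 3 other miRNAs with the highest Pearson's r over 12 libraries. Alternatives were upper quartile scaling, voom, log2 with a pseudocount of 1, a filter of 100 reads in each library of some group or none, a fit of the compared groups alone, a difference of 1 or more, a pseudocount of 5 reads or VST differences for ratios, the total without the 10 most abundant other miRNAs, and leaving out each replicate in turn. TMM-type scaling (trimming 30% and 5%) and total miRNA reads as library size were added after seeing the data. Sequences and positions are those of RefSeq and GENCODE for GRCm38, matched by name, and no coordinates of mm8 were used. A list of 4 blood and endothelial miRNAs summed to 263 to 285 CPM for MEFs, 2001 to 2070 for ESCs and 87.5 to 125 for reprogrammed libraries. Of these, 1 was higher and 2 lower in reprogrammed cells than in ESCs by limma.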

Additional observations from a re-analysis of the deposited data

Results flagged for a closer look

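NT-ESCs and NT-iPSCs each differed from iPSCs in 3 members, by a limma test of the difference itself with Benjamini-Hochberg adjustment over 732 miRNAs. All 3 were higher than in iPSCs. Of all miRNAs 25.7% and 26.5% passed in these comparisons, a share close to that of the members, and 12.6% and 13.4% passed as higher. miR-23a-3p was higher by 0.73 (adjusted p = 0.0166) in NT-ESCs and by 0.57 (adjusted p = 0.0438) in NT-iPSCs than in iPSCs, in log2 units. miR-23b-3p was higher by 0.70 (adjusted p = 0.0182) and 0.61 (adjusted p = 0.0309), and miR-24-2-5p by 0.75 (adjusted p = 0.024) and 0.92 (adjusted p = 0.00781). In each case both libraries of the first type lay above both iPSC libraries. Libraries did not overlap, in either direction, for 6 of 11 members in each of the 2 comparisons, and for 68.9% and 63.1% of all miRNAs tested. Both comparisons use the same 2 iPSC libraries, of which replicate 62 was the lower for all 3 miRNAs. Without it, the differences of miR-23a-3p were 0.46 and 0.31, and none of the 3 miRNAs passed in either comparison. None passed in the NT-ESC comparison without either NT-ESC library, or in the NT-iPSC comparison without NT-iPSC replicate 52. With total miRNA reads as library size none of these 6 differences passed. They were then 0.37 (adjusted p = 0.119) and 0.03 (adjusted p = 0.918) for miR-23a-3p, 0.34 and 0.07 (adjusted p = 0.774) for miR-23b-3p, and 0.40 and 0.39 for miR-24-2-5p, in NT-ESCs and NT-iPSCs. None passed in a fit of only the groups compared, and TMM-type scaling lost miR-23a-3p (0.49) and miR-23b-3p (0.53) in NT-iPSCs. With voom on recovered reads miR-24-2-5p did not pass in NT-ESCs (0.76, adjusted p = 0.0783), and with no filter on low counts miR-23a-3p did not pass in NT-iPSCs (0.57, adjusted p = 0.0531).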

How the results depend on the processing

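The count of members called between reprogrammed cells and ESCs, and that between reprogrammed cells and MEFs, stayed within 1.5 times its value under every alternative run. Counts moved by more than this in 3 other comparisons. Between MEFs and ESCs (8 called), 4 of the 8 passed with TMM-type scaling and 4 with a minimum difference of 1. With total miRNA reads as library size 2 members passed, both outside the 8 and lower in MEFs. Between NT-ESCs and iPSCs (3 called), 0 passed with total reads and 0 with a minimum difference of 1, and a fit of only the groups compared called 1, miR-23a-5p, which is not among the 3. Between NT-iPSCs and iPSCs (3 called), 1 of the 3 passed with TMM-type scaling (miR-24-2-5p) and 0 with a minimum difference of 1. Total reads called 1 (miR-24-1-5p) and a fit of only the groups compared 1 (miR-23a-5p), neither among the 3. Leaving out 1 replicate gave 0 to 3 calls in either comparison. Arm ratios called between MEFs and ESCs went from 0 to 1 with a pseudocount of 5 reads.

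Directions turned between MEFs and ESCs with total reads for miR-23a-3p (-0.19), miR-27a-3p (-0.32), miR-27a-5p (-0.12), miR-24-3p (-0.13), miR-24-2-5p (-0.65) and miR-24-1-5p (-0.73), and with TMM-type scaling for miR-24-2-5p (-0.22) and miR-24-1-5p (-0.31). miR-27b-5p turned against ESCs with TMM-type scaling (-0.0069) and against MEFs with total reads (0.13). The arm ratio of miR-27b between MEFs and ESCs, near 0 (-0.15 without MEF replicate 14), turned without ESC replicate 4 (0.098), MEF replicate 13 (0.0027) or MEF replicate 15 (0.0067). That of miR-24-1 between reprogrammed cells and ESCs turned with a pseudocount of 5 reads (0.27).

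The log2 ratio of miR-23a-5p to miR-23b-5p between reprogrammed cells and ESCs was -1.89 with 5 reads added (exact permutation p = 0.0119, not adjusted). The members' share passed between MEFs and pluripotent cells with the 10 most abundant other miRNAs out of the total (2.56 points, exact permutation p = 0.00455). With 1 replicate left out, values for MEFs against pluripotent cells ran from -1.38 to -1.18 for miR-23a-3p to miR-23b-3p, 1.05 to 1.52 for miR-23a-5p to miR-23b-5p, 3.44 to 4.28 for miR-27a-5p to miR-27b-5p, and 0.537 to 0.712 points for the share. The last 3 passed without ESC replicate 2 or 4, ESC replicate 4 and ESC replicate 2. The ratio of miR-23a-5p to miR-23b-5p against ESCs ran from -1.91 to -0.51. The cause was not tested in any of these cases.

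No paired analysis was possible because no 2 groups carry the same replicate numbers. With 3 ESC libraries and 6 reprogrammed ones, no exact p can fall below 0.0119, and miR-23a-5p, miR-23b-5p and miR-24-1-5p have too few reads in some groups for their size of change to be firm.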
